A study of Mus musculus with 34 samples.

Results

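The genes described here encode intermediate filament proteins: nestin (Nes), vimentin (Vim), desmin (Des), the keratins Krt7, Krt8, Krt18 and Krt19, and the nuclear lamins Lmna, Lmnb1 and Lmnb2. They were chosen by name, and all 10 were found among the 23366 rows of the deposited expression table. J1 mESCs, a line of mouse embryonic stem cells that needs LIF in serum medium, were cultured on gelatin in serum without LIF (serum/-LIF, 2 libraries) or in serum without LIF and with 0.5 mg/ml purified Royalactin, the main protein of honey bee royal jelly (serum/-LIF + Royalactin, 2 libraries). The labels give passage 40 for each RNA library, whereas the study describes such cultures at a lower passage. The cells carried no transgene or deletion according to the labels, and both conditions lacked added LIF, so that the protein is the labelled difference between them. The samples of the series hold no serum/+LIF RNA library, and all values below come from ribosomal RNA-depleted total RNA. Cells were grown in triplicate by the labels, which do not say whether the 2 libraries of a condition came from separate wells, so p-values measure the spread between these libraries, which may be technical.

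Intermediate filaments are rope-like polymers that give cells and nuclei mechanical strength, and which proteins form them differs by cell type. Keratins assemble only as pairs of a type I and a type II chain, of which Krt8 (type II) and Krt18 (type I) form the pair of simple epithelia and of the first epithelia of the embryo. Vimentin and desmin are type III proteins of mesenchymal and of muscle cells, nestin is a large protein typical of neural and muscle progenitors that co-assembles with type III partners, and the lamins line the inner nuclear membrane, with B-type lamins present in nearly all cells and A-type lamins rising as cells differentiate.

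Nes, Krt8 and Krt18 were lower with Royalactin, by 3.87-fold, 5.05-fold and 4.59-fold, and these 3 of the 10 genes passed an adjusted p of 0.05. The remaining genes did not pass: Krt19 had a lower mean with a wide spread, Vim, Des and the 3 lamins had means that differed by less than 2-fold, and Krt7 was weakly detected. In bulk RNA such as this, fewer cells of a type and less RNA per cell cannot be told apart. Over all 12993 tested genes, 0.493% were called, 0.162% lower and 0.331% higher with Royalactin. The test was limma on log2(normalized count + 1) for genes with a mean of at least 10 normalized counts, with p-values adjusted over all tested genes by the Benjamini-Hochberg method (BH), and all 10 genes were above that mean. Normalized counts are reads scaled to the depth of each library, and fold changes on this scale understate the change of weakly expressed genes.

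The libraries held 14737796 to 17597818 reads on genes, of which the 45S ribosomal RNA precursor Rn45s took 9.08% to 46.6%. All 12 mESC markers examined, such as Pou5f1, were above 0 in all 4 libraries, with summed normalized counts of 36755 to 39887 in serum/-LIF and 45940 to 53016 with Royalactin. Of these markers 10 had higher means with Royalactin (median of the 12 log2 fold changes 0.82), and 3, Sox2, Zfp42 and Esrrb, were called higher in limma after BH adjustment. Of all tested genes, 50.6% had lower means and 0.331% were called higher. The 2 markers with lower means were Tdgf1 and Lin28a. Tdgf1 had 10914 and 14553 normalized counts in serum/-LIF against 8696 and 9728 with Royalactin. Lin28a had 7005 and 5721 against 5402 and 5707. Esrrb had 233 and 181 normalized counts in serum/-LIF against 1640.5 and 1389.8 with Royalactin. Across genes, which are not independent replicates, the log2 values of replicates correlated at 0.876 (Pearson) in serum/-LIF and 0.929 with Royalactin. Serum/-LIF replicate 1 had the largest share of Rn45s and the fewest other reads, 7878527. The share of Rn45s was 46.6% and 21.6% in serum/-LIF replicates 1 and 2. With Royalactin it was 38.4% and 9.08%, so both replicate 1 libraries had more than both replicate 2 libraries.

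The promoters of the genes that fell are shown because Krt8 and Krt18 are neighbours that moved together while Nes lies on another chromosome. Sequences are those before the RefSeq gene start (GRCm38.p6 entries), each matched at a single place in mm9 and cut where the GENCODE gene begins, 5′ to 3′ on the strand of the gene. Capitals mark the GC box GGGCGG in Nes and the E-box CACCTG in Krt8 and Krt18, each on either strand. Of the 32851 RefSeq promoters, 32.7% held GGGCGG and 17.2% held CACCTG in the 250 bases before the start. The same motifs also stood before RefSeq starts of genes described here that were not called. GGGCGG was found before Des and Lmnb2. The windows of Lmna, Krt7 and another RefSeq start of Lmnb2 lay within the GENCODE gene. Those windows held GGGCGG in Lmna and Krt7 and CACCTG in Lmnb2 and Krt7.
Nes, chr3:87774765-87774999, plus strand: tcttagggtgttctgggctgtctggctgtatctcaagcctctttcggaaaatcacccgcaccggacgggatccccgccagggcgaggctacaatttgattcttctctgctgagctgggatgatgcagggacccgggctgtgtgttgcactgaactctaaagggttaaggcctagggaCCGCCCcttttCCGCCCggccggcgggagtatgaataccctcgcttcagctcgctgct
Krt8, chr15:101834774-101835023, minus strand: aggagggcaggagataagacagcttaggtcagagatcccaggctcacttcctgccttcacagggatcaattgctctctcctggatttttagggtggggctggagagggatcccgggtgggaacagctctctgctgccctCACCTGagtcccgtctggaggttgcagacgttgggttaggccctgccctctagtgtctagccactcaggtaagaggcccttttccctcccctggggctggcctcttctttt
Krt18, chr15:101858397-101858646, plus strand: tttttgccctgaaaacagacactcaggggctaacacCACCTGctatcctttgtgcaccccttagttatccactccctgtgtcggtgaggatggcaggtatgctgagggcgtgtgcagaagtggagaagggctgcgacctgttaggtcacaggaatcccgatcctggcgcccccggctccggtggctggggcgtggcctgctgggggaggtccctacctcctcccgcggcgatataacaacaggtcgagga
In Nes the GC boxes began 73 and 62 bases before the RefSeq start. The E-box began 111 bases before the start in Krt8 and 214 bases before it in Krt18. None of the 3 windows held the TATA box TATAAA, the AP-1 motif TGANTCA or the CArG box of SRF, which 12.4%, 6.75% and 1.47% of promoters held. A match or its absence describes only these letters, and the motifs do not overlap each other here.

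Nes (chr3:87775000-87784373 of mm9, plus strand) was measured at 1489.8 and 1099 normalized counts in serum/-LIF and at 334 and 326 with Royalactin. The groups did not overlap, and the Royalactin libraries lay close together, whereas the first serum/-LIF library was 1.35 times the second. The means were 1294.5 ± 276 and 329.8 ± 5.91 (SD, n = 2), a log2 fold change of -1.95 ± 0.33 (SE, limma, BH-adjusted p = 0.0166), the 30th smallest p of all tested genes by rank. Reads from this gene numbered 332 or more in every library. Of the 75-base tiles of its exons, 3.64% matched another place with up to 2 mismatches, all of them within Nes itself. The Nes call held in 8 of the 12 alternative fits, and in limma the BH-adjusted p was 0.0220 without serum/-LIF replicate 2, 0.185 without serum/-LIF replicate 1, 0.426 without Royalactin replicate 1 and 0.743 without Royalactin replicate 2. In those last 3 fits the number of genes called in all fell from 64 to 0, 4 and 0.

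**Figure D1:**
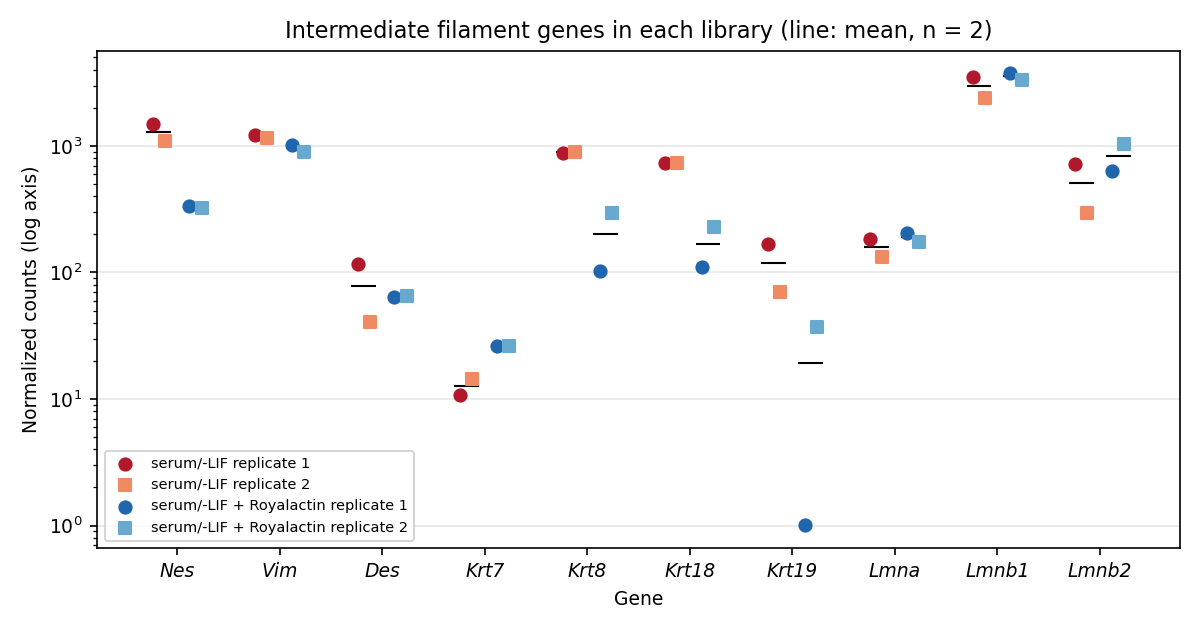
Normalized counts of the 10 genes (log axis) in each of the 4 libraries, with a short line at the mean of each condition (n = 2). The serum/-LIF libraries lie above both Royalactin libraries for Nes, Vim, Krt8, Krt18 and Krt19 and below both for Krt7. The points of Lmna, Lmnb1, Lmnb2 and Des overlap between conditions.

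Krt8 (chr15:101827142-101834773, minus strand) had 883 and 897 normalized counts in serum/-LIF against 104 and 297 with Royalactin. Krt18 (chr15:101858647-101862457, plus strand) had 732 and 731 normalized counts in serum/-LIF against 111 and 227 with Royalactin. For both genes the serum/-LIF libraries were nearly equal, the groups did not overlap, and Royalactin replicate 1 was the lower of its pair. The means of Krt8 were 890.01 ± 10.4 and 200.1 ± 137 (SD, n = 2), a log2 fold change of -2.34 ± 0.45 (SE, limma, BH-adjusted p = 0.0400). Those of Krt18 were 731 ± 0.545 and 169 ± 82.4 (SD, n = 2), a log2 fold change of -2.20 ± 0.41 (SE, limma, BH-adjusted p = 0.0336).

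Both calls lay near the threshold and held in 4 of 12 alternative fits. In limma the BH-adjusted p of Krt8 and Krt18 was 0.201 and 0.192 without serum/-LIF replicate 1, 0.135 and 0.0982 without serum/-LIF replicate 2, 0.794 and 0.697 without Royalactin replicate 1, and 0.602 and 0.651 without Royalactin replicate 2. The direction was the same in all 12 alternatives. The counts of Krt8 carry a further uncertainty, since 85.7% of its exon tiles (42 of 49) also matched a stretch of chromosome 7 (24142113 to 24143830 of mm9) with up to 2 mismatches. For Krt18 this share was 2.56% (1 of 39 tiles).

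**Figure D2:**
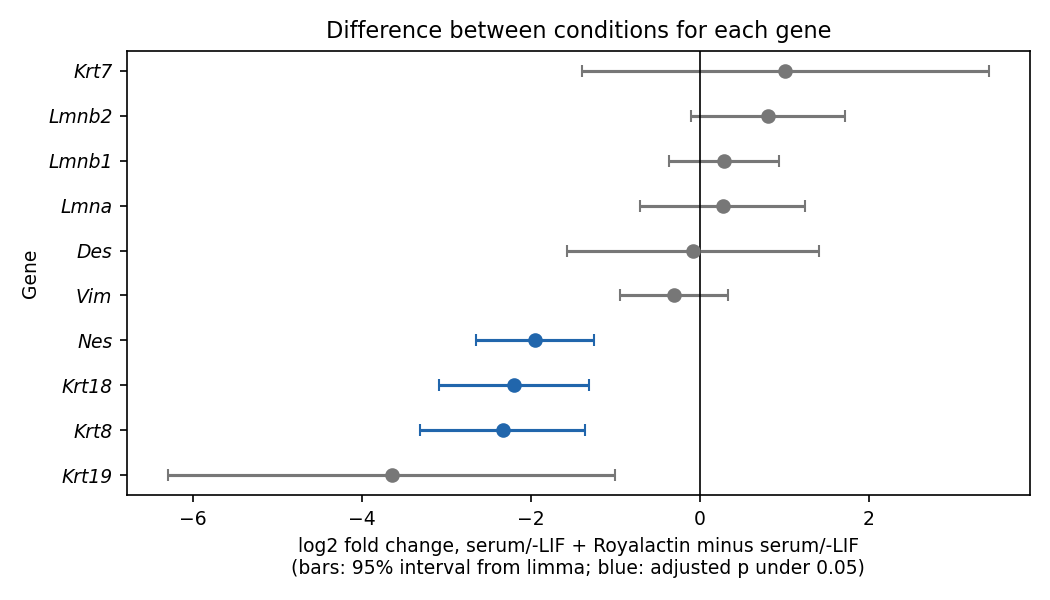
Log2 fold change of each gene, serum/-LIF + Royalactin minus serum/-LIF, with the 95% interval from limma. Blue points are the 3 genes with an adjusted p under 0.05, and the intervals of Vim, Des, Krt7 and the lamins include 0.

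The neighbours Krt8 and Krt18 stand head to head on chromosome 15 with 23.9 kb between them, at the end of a cluster of type II keratin genes in which Krt18 is the type I gene. Of the 20 other keratin genes placed in that cluster, 17 had no read in any library. The remaining 3 were Krt2 with 6.20 normalized counts in Royalactin replicate 2, Krt79 with 1.38 in the same library and Krt77 with 32.1 in serum/-LIF replicate 2, each at 0 elsewhere. A count of 0 allows up to 3 reads, which is 2.07 to 4.01 normalized counts depending on the library, and this limit covers counting error only. Expression across the cluster was therefore detected mainly at Krt8 and Krt18 and, more weakly, at Krt7, 566.4 kb from Krt8.

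**Figure D3:**
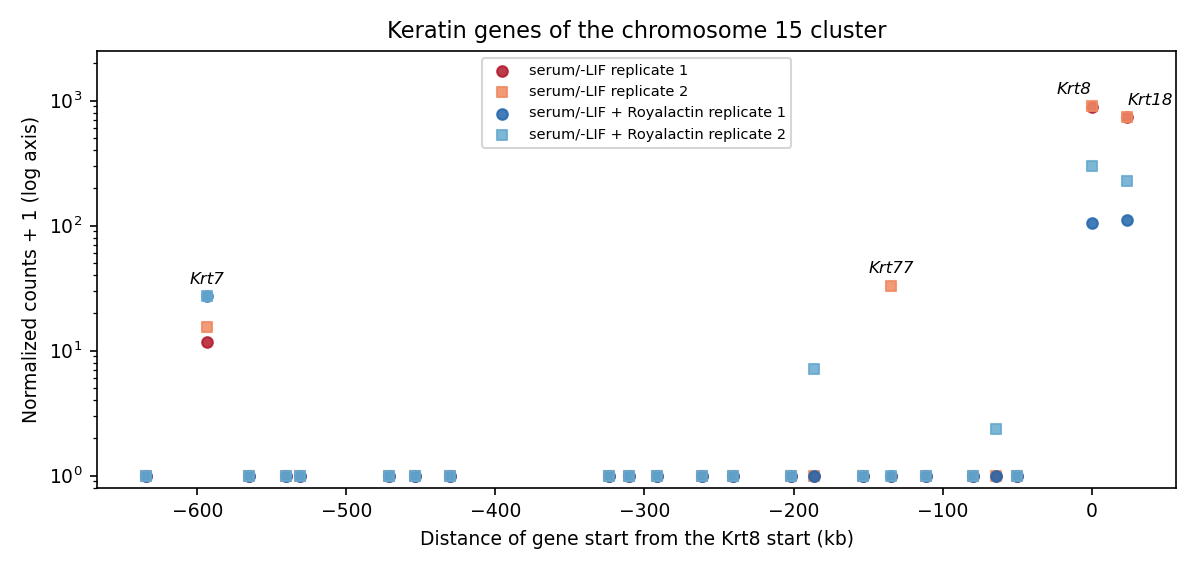
Normalized counts + 1 (log axis) of the 23 keratin genes of the chromosome 15 cluster against the distance of their start from that of Krt8, in kb. Krt8 and Krt18 at the right edge are the highest in all 4 libraries, and 17 genes sit on the baseline of 0 counts.

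The ratio of Krt8 to Krt18 normalized counts was 1.21 and 1.23 in serum/-LIF and 0.936 and 1.31 with Royalactin. The log2 ratio differed between conditions by -0.14, with a pooled SD of 0.24. The difference was 0.10 without Royalactin replicate 1 and -0.38 without Royalactin replicate 2, so that its sign and size rested on single libraries. Per kb of transcript, Krt8 made up 40.0% to 46.6% and Krt18 45.5% to 55.1% of the summed level of the 4 keratins in each library, while the sum itself was 1121 and 1067 against 143 and 357 normalized counts per kb. The Krt8 ratios and shares also depend on how reads matching the chromosome 7 stretch were counted. The sources used here do not state this. No test was run on these ratios, since an exact permutation test of 2 libraries against 2 cannot give a two-sided p below 0.333.

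Krt19, a type I keratin of simple epithelia without a tail domain (chr11:100002124-100009979, minus strand), had 168.5 and 70.4 normalized counts in serum/-LIF and 1.01 and 37.2 with Royalactin. The groups did not overlap, but the Royalactin replicates were far apart, with 1 read (95% exact Poisson interval 0.0253 to 5.57 reads) in replicate 1 and 54 reads in replicate 2. Its log2 fold change of -3.65 (standard error 1.23) did not pass in limma (BH-adjusted p = 0.320), although it had an unadjusted p of 0.0105. By the limits the study states, a p of 0.05 and a 2-fold change, applied to the unadjusted limma p-values, Krt19 joined Nes, Krt8 and Krt18, which gave 4 of 10 genes, all lower, against 7.13% of all tested genes (3.61% lower and 3.52% higher). With each library left out in turn its log2 fold change lay between -5.78 and -1.53.

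Krt7, the type II keratin of glandular and transitional epithelia, was weakly detected, with 10.7 and 14.5 normalized counts in serum/-LIF (8 and 14 reads) and 26.2 in each Royalactin library (26 and 38 reads). Its levels were higher in each Royalactin library than in either serum/-LIF library, opposite to the other 3 keratins. The log2 fold change of 1.01 had a 95% interval of -1.40 to 3.42 (limma, BH-adjusted p = 0.835), so at this depth neither a rise nor a fall was detectable.

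Vim, the type III filament of mesenchymal cells, was abundant in both conditions. It had 1218 and 1149.9 normalized counts in serum/-LIF and 1019 and 896 with Royalactin. The groups did not overlap, yet the difference was small, with means of 1184 ± 48.3 and 958 ± 86.8 (SD, n = 2). The log2 fold change was -0.31 with a 95% interval of -0.95 to 0.33 (limma, BH-adjusted p = 0.807). The ratio of Nes to Vim was 1.22 and 0.956 in serum/-LIF and 0.328 and 0.363 with Royalactin, a difference of the log2 ratio of -1.65 with a pooled SD of 0.19. With each library left out in turn that difference lay between -1.82 and -1.47.

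Des, the type III filament of muscle, had 116 and 40.4 normalized counts in serum/-LIF and 64.4 and 65.4 with Royalactin. The serum/-LIF libraries lay on either side of the Royalactin pair. Its log2 fold change of -0.08 (limma, BH-adjusted p = 0.983) was 0.67 without serum/-LIF replicate 1, the opposite sign. Of the bases of its exons, 5.86% overlap Gm15179 on the opposite strand, and the sources used here do not state whether reads were counted by strand.

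**Figure D4:**
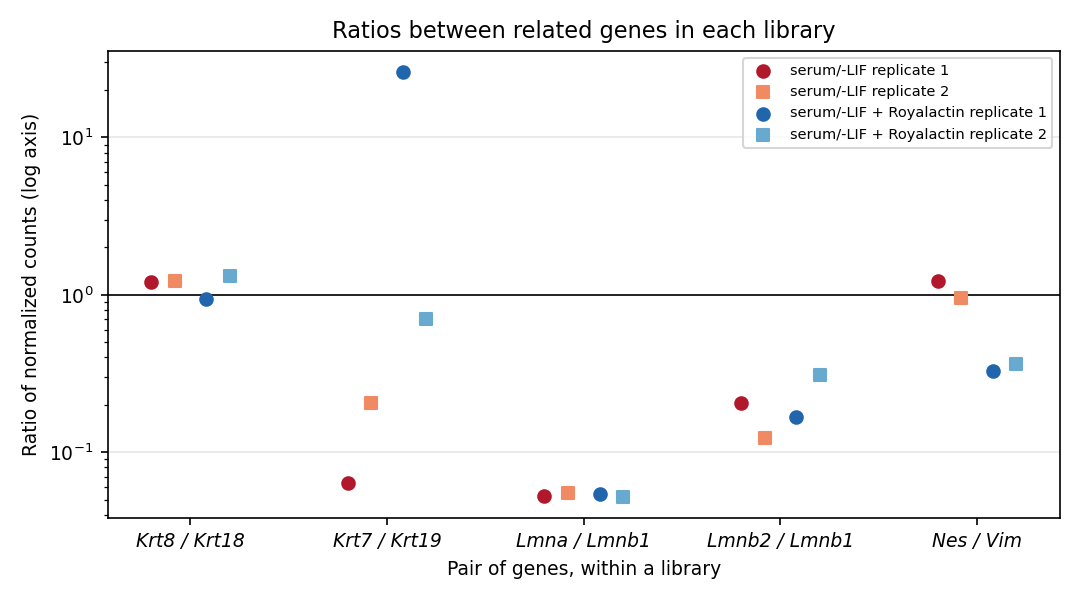
Ratio of normalized counts (log axis) between related genes within each of the 4 libraries, where the scaling of a library cancels. The ratio of Lmna to Lmnb1 is nearly the same in all libraries, that of Nes to Vim is lower in both Royalactin libraries, and that of Krt7 to Krt19 is highest in Royalactin replicate 1, where Krt19 had 1 read.

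Among the lamins, 0 of 3 passed in limma after BH adjustment, and 0 had an unadjusted p under 0.05. Over all tested genes these shares were 0.493% and 9.34%. Lmnb1, the main B-type lamin, had 3508 and 2405.5 normalized counts in serum/-LIF and 3746 and 3347 with Royalactin. Lmnb2, the second B-type lamin, had 717 and 295 against 629.7 and 1035. Lmna, which encodes lamins A and C, had 185 and 132 against 204 and 175. For each lamin the libraries of the conditions overlapped. The log2 fold changes were 0.29 for Lmnb1 with a 95% interval of -0.37 to 0.94, 0.81 for Lmnb2 with -0.10 to 1.73 and 0.27 for Lmna with -0.70 to 1.25 (limma, BH-adjusted p of 0.827, 0.608 and 0.897). The intervals include 0 and also changes of up to 1.73 on the log2 scale for Lmnb2, so equal levels were not shown.

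Of the ratios computed, that of the A-type lamin to the main B-type lamin varied least. The ratio of Lmna to Lmnb1 normalized counts was 0.0526 and 0.0551 in serum/-LIF and 0.0545 and 0.0522 with Royalactin. The difference of the log2 ratio between conditions was -0.01 with a pooled SD of 0.05, and it ranged from -0.05 to 0.02 with each library left out. Lmna had 138 and 128 reads in serum/-LIF and 203 and 254 with Royalactin. For the 128 reads the 95% exact Poisson interval was 107 to 152 reads. Counting error was thus wider than this spread, and a constant ratio was not shown. The ratio of Lmnb2 to Lmnb1 was less even, at 0.204 and 0.123 against 0.168 and 0.309.

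Per kb of transcript, the order of levels in serum/-LIF ran from Lmnb1 (1040 ± 274 normalized counts per kb, SD, n = 2) through Vim (540 ± 22.0), Krt18 (522 ± 0.389), Krt8 (493 ± 5.78), Nes (211 ± 45.1), Lmnb2 (143 ± 84.5), Krt19 (75.8 ± 44.0), Lmna (50.2 ± 11.7) and Des (25.9 ± 17.7) to Krt7 (3.08 ± 0.655). Here Vim and Krt18, Nes and Lmnb2, Lmnb2 and Krt19, and Krt19 and Lmna differed by less than the larger SD of the pair. The SD of 2 libraries can lie below counting error. Krt18 had 547 reads in serum/-LIF replicate 1, with a 95% exact Poisson interval of 502 to 595 reads. Krt18 and Krt8, which are not listed, were therefore not shown to differ. The level of Krt8 also carries the uncertainty of its matching stretch on chromosome 7. With Royalactin, Lmnb1 (1247 ± 99.1) and Vim (437 ± 39.6) led again, followed by Lmnb2 (236 ± 81.2), Krt18 (121 ± 58.8), Krt8 (111 ± 75.6), Lmna (60.0 ± 6.58) and Nes (53.8 ± 0.964). Krt18, Krt8, Lmna and Nes formed a run of neighbours that differed by less than the larger SD. Des (21.4 ± 0.238), Krt19 (12.1 ± 16.2) and Krt7 (6.39 ± 0.000882) came last, and Des and Krt19, and Krt19 and Krt7, did not differ beyond their spread.

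Of the 10 genes, 6 had lower and 4 had higher means with Royalactin, where 50.6% of all tested genes had lower means. The groups did not overlap for 5 genes on the lower side, Nes, Vim, Krt8, Krt18 and Krt19, against 18.9% of all tested genes, and for 1 gene, Krt7, on the higher side, against 19.7%. The median log2 fold change of the 10 genes was -0.19, and that of all tested genes -0.01.

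Genes that work with intermediate filaments were read from lists chosen by function. Of 12 other cytoplasmic intermediate filament genes, 9 were tested, and 1 was called lower and 0 higher in limma after BH adjustment. Over all tested genes these shares were 0.162% and 0.331%. Their median log2 fold change was -0.39, against -0.01 for all tested genes. Means were lower for 6 and higher for 3 of these genes, where 50.6% of all tested genes had lower means. The groups did not overlap for 4 on the lower and 1 on the higher side, against 18.9% and 19.7%. The called gene was Nefl, the light chain of neurofilaments, with 1693 and 1960.4 normalized counts in serum/-LIF against 521 and 727 with Royalactin (log2 fold change -1.56, limma, BH-adjusted p = 0.0450). This call was near the threshold and was lost without each library in turn, with a limma BH-adjusted p of 0.185 without serum/-LIF replicate 1, 0.115 without serum/-LIF replicate 2, 0.9998 without Royalactin replicate 1 and 0.756 without Royalactin replicate 2. Nefm, the medium chain, had 310.3 and 275 against 99.6 and 21.3 normalized counts, with a log2 fold change of -2.63 that did not pass (limma, BH-adjusted p = 0.136). In GENCODE, Nefm overlaps Nefl on the opposite strand, and the strand setting of the counting is not given. Nefh, the heavy chain, named after its values were seen, had 209.96 and 184 against 304 and 231 normalized counts (limma, BH-adjusted p = 0.807). Gfap, the filament of astrocytes, was at 15.1 normalized counts or fewer in every library, with a log2 fold change of 0.93 (limma, BH-adjusted p = 0.896).

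Of 15 genes for filament linkers and desmosomes, the junctions to which keratins attach, 14 were tested. In limma 0 passed after BH adjustment and 2 had an unadjusted p under 0.05, against 0.493% and 9.34% of all tested genes. Their means were lower for 10 and higher for 4 genes, with a median log2 fold change of -0.37. Eppk1, which encodes the keratin-binding plakin epiplakin, had the largest difference of the list, with 302 and 189 normalized counts in serum/-LIF against 75.4 and 73.7 with Royalactin (log2 fold change -1.67, unadjusted p = 0.00504 in limma, BH-adjusted p = 0.229). Perp, a desmosomal membrane protein, had 527 and 654 against 175 and 206 normalized counts (log2 fold change -1.62, unadjusted p = 0.000679 in limma, BH-adjusted p = 0.0939). Evpl, envoplakin, had 104 and 73.5 against 28.2 and 46.1 normalized counts (log2 fold change -1.26, limma, BH-adjusted p = 0.630). For Eppk1, Perp and Evpl both Royalactin libraries were below both serum/-LIF libraries. Of the 14 tested genes, the groups did not overlap for 6 on the lower and 2 on the higher side. The shares over all tested genes were 18.9% and 19.7%, and 50.6% of all tested genes had lower means.

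Of 18 genes for partners of the lamina and for prelamin processing, 17 were tested. In limma 0 passed after BH adjustment and 0 had an unadjusted p under 0.05, against 0.493% and 9.34% of all tested genes. Their means were lower for 8 and higher for 9 genes, where 50.6% of all tested genes had lower means. Their median log2 fold change was 0.01. Fntb, the beta subunit of the farnesyltransferase that modifies prelamin A and B-type lamins, had 284 and 124 normalized counts in serum/-LIF against 289.7 and 410.3 with Royalactin (log2 fold change 0.87, limma, BH-adjusted p = 0.611). Tmem43, a protein of the inner nuclear membrane, had 158 and 214 against 345.0 and 321 normalized counts (log2 fold change 0.85, limma, BH-adjusted p = 0.547), and Sun2, a protein of the bridge between lamina and cytoskeleton, had 93.6 and 29.0 against 129 and 59.9 (log2 fold change 0.74, limma, BH-adjusted p = 0.814).

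Of 48 other keratin genes, 35 had no read in any library and 4 were tested. In limma 0 passed after BH adjustment and 1, Krt42, had an unadjusted p under 0.05, against 0.493% and 9.34% of all tested genes. Krt42 had 12.0 and 1.04 normalized counts in serum/-LIF and 40.2 and 65.4 with Royalactin (log2 fold change 3.34, unadjusted p = 0.0240 in limma, BH-adjusted p = 0.420). Krt10 had 14.7 and 0 against 20.1 and 26.8 normalized counts (log2 fold change 2.61, limma, BH-adjusted p = 0.697), and Krt9 had 0 and 39.3 against 0 and 3.44 (log2 fold change -1.59, limma, BH-adjusted p = 0.904). The median of the 4 tested genes was 1.65, over few reads.

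**Figure D5:**
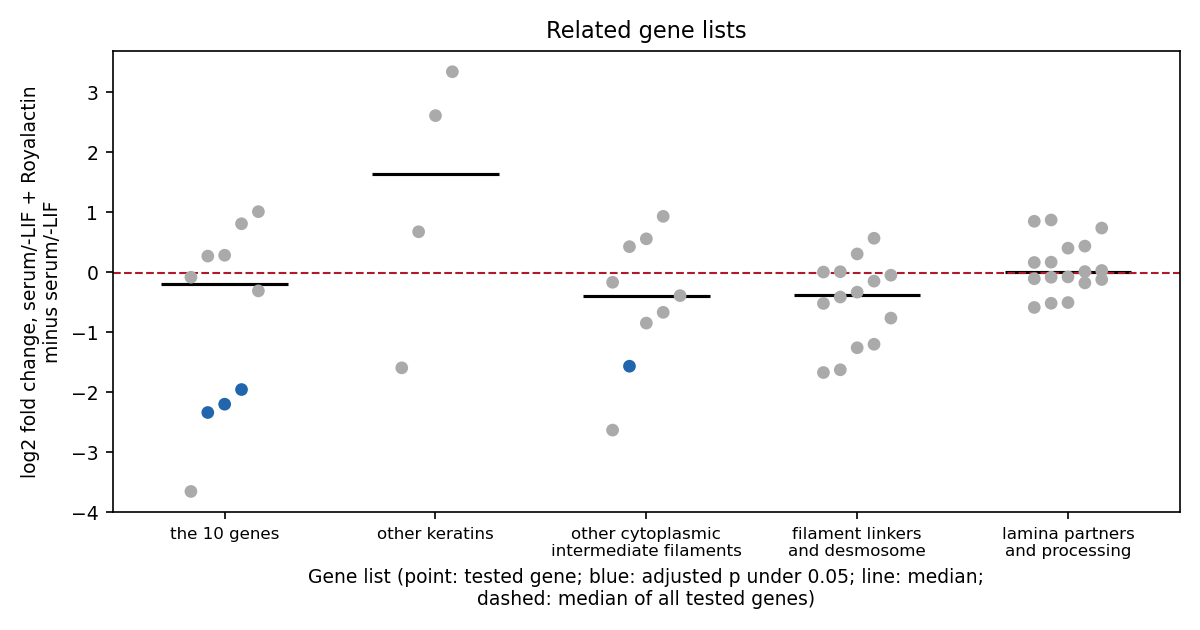
Log2 fold changes, serum/-LIF + Royalactin minus serum/-LIF, of the tested genes of each list, with the median of the list as a line and that of all tested genes dashed. The blue points past an adjusted p of 0.05 are Nes, Krt8 and Krt18 among the 10 genes and Nefl among the other cytoplasmic intermediate filament genes.

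The genes with the pattern most like each called gene were found by the distance between their 4 log2 values, each centred on its own mean, over all tested genes. Nearest to Nes were Sel1l3 (distance 0.203), Cxcl16 (0.219) and Igfbp3 (0.230). Igfbp3, a secreted binding protein of insulin-like growth factors, had 901 and 829 normalized counts in serum/-LIF against 218 and 223 with Royalactin (limma, BH-adjusted p = 0.0210, and 0.185, 0.477 and 0.743 without serum/-LIF replicate 1, Royalactin replicate 1 and Royalactin replicate 2). Nearest to Krt8 were Gja6, Msx1 and Fgf13, and nearest to Krt18 were Fam83b, Msx1 and Gm3336, at distances of 0.150 to 0.254. Msx1, a homeobox factor, had 77.6 and 78.7 against 9.05 and 22.7 normalized counts and did not pass (limma, BH-adjusted p = 0.388). Krt18 was the 10th nearest of 12990 genes to Krt8, at a distance of 0.366, and Nes the 210th.

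Markers of other cell types that use these filaments were read beside the results. Of 10 muscle markers the summed normalized counts were 2572 and 3308 in serum/-LIF and 225 and 381 with Royalactin. These sums were carried mainly by the smooth-muscle genes Tagln and Cnn1, with Myod1, Myf5 and Tnnt2 at 0 in all libraries. Tagln and Cnn1, 2 of the 6 muscle markers tested, were called lower in limma after BH adjustment. Of all tested genes, 0.162% were called lower. Of 10 fibroblast markers the sums were 293 and 235 against 149 and 84.7, with Pdgfrb and Postn at 0 in all libraries. Of 10 surface epithelium markers they were 3276 and 2340.3 against 2216 and 1945, with Trp63 at 0 in all libraries. Sfn, 1 of the 9 surface epithelium markers tested, was called lower in limma after BH adjustment, against 0.162% of all tested genes. Of 10 trophoblast markers the sums were 84.3 and 125 against 245 and 357, with Elf5, Tpbpa and Prl3d1 at 0 in all libraries. Of 10 extraembryonic endoderm markers they were 5529.8 and 3448 against 3783 and 3785, and of 10 neural progenitor markers 399.9 and 211 against 471 and 346, with Neurog2 at 0 in all libraries. The muscle and fibroblast sums were lower in both Royalactin libraries, as were Nes, Krt8 and Krt18. The fibroblast sum was carried mainly by Col5a1, with 170 and 141 against 82.5 and 43.4 normalized counts. Of the 10 fibroblast markers only 3 were tested, all with lower means, and 0 were called. Thy1 overlapped between conditions, with 41.5 and 33.1 against 45.3 and 29.6. The surface epithelium sum was lower through Sfn, since without it the sums were 2221 and 1782 against 2037 and 1751, which overlapped, and 4 of the 9 tested genes had higher means. The trophoblast sum was higher in both Royalactin libraries, mainly through Tfap2c. Their part in the results was not tested.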

How the data were processed

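Sequenced RNA of 4 J1 mESC libraries was used, 2 a condition, with groups and replicate numbers from the labels. The other 30 samples of the series are ATAC-seq and were not analysed here. The authors aligned 75-cycle reads to mm9 with Tophat, obtained gene counts from HTSeq-count and deposited counts normalized by DESeq, a signal proportional to reads. The annotation and strand setting for counting are not given in the sources used here.

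All deposited values (100%) of a library were multiples of 1 step, to within 0.01 of a read. Dividing by it gave the read numbers. For the first Royalactin library, with a step of 1.01, an automatic check did not accept whole reads, although its values were multiples of that step. No test on counts was run.

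limma 3.58.1 (R 4.3.3) was fitted with a variance trend to log2(normalized count + 1) of all genes whose mean reached 10 normalized counts. The variance of each gene was moderated towards that of genes of similar level. Its p-value thus rests also on the spread of other genes in these libraries. Tests were two-sided with Benjamini-Hochberg (BH) adjustment. The paper's limits (p of 0.05, 2-fold) were applied to unadjusted limma p-values. The steps were tested on simulated data. Same-numbered replicates had deviations from their group means that correlated at 0.0851 across genes, so the numbers were not treated as pairs. Both replicate 1 libraries nevertheless had a larger share of Rn45s than both replicate 2 libraries. Whether the numbers mark pairs was not tested further.

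The 10 genes and the lists were chosen with earlier results of these data known. Named are the 10 genes, every called gene of the function lists and the 3 largest absolute changes of each, and for each called member the 3 nearest genes in pattern; marker genes are named with their list, and the other keratins of the cluster with a read were named after their values were seen. Positions and lengths (the transcript with the longest coding sequence) come from GENCODE vM1 on mm9. Promoters come from RefSeq (GRCm38.p6), with no entry used here for Krt19 and Lmnb1. Exon tiles of 75 bases were mapped to mm9 with minimap2 2.31-r1302, and copies can be missed. Alternatives were pseudocounts of 0.1 and 5, other filters and scalings, no trend, the replicate block and each library left out. All columns of values were mapped.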

Additional observations from a re-analysis of the deposited data

How the results depend on the processing

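All tests rest on 2 libraries a condition. Of the 10 genes, 3 passed in limma, and 1 (Nes) passed with a pseudocount of 0.1, with every detected gene kept and with upper-quartile scaling, 0 without the trend of the variance, and 0 to 1 with each library left out. With the replicate block, where the number is shared but not shown to pair the libraries, 4 passed (Krt19 in addition, limma, BH-adjusted p = 0.0173). The number of all genes called in limma was 64 as reported, 32 with a pseudocount of 0.1, 34 with every detected gene kept, 99 when a mean of 50 was required, 391 with the replicate block and 0 without the trend (1135 at an unadjusted p under 0.05). With each library left out it was 0 to 60, and the fits with 0 had 2518 and 547 genes at an unadjusted p under 0.05. In those fits the lone library is assumed to vary like the others. Upper-quartile scaling gave 34 higher and 12 lower calls against 43 and 21. What caused these shifts was not tested.

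The log2 fold change of Des reversed with a library left out (-0.83 to 0.67). The median of the other keratins was 2.24 with a pseudocount of 0.1, 1.07 with 5, 0.62 with every detected gene kept and 0.24 to 1.11 with each library left out. The medians of the other cytoplasmic intermediate filament genes and of the linkers and desmosome genes were -0.59 to -0.28 and -0.69 to -0.26 with each library left out, and that of the lamina partners took both signs (-0.09 to 0.20). For the 10 genes, no other log2 fold change changed sign under the alternatives run. Krt7 fell below a mean of 50 and was not tested there. A count test on recovered reads was planned and not run. The alternatives for the ratios were chosen after seeing the data.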
